A study of Mus musculus with 12 samples.

Results

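The 8 genes described here are transcription factors and markers of the epithelial-mesenchymal transition (EMT): *Snai1*, *Snai2*, *Zeb1*, *Zeb2*, *Twist1*, *Vim*, *Cdh2* and *Epcam*. They were chosen by gene symbol, and 7 of the 8 were listed among the 18926 genes of the expression tables. *Twist1* was not among the listed genes and was not analysed here. Every listed gene had a count above 0 in all 12 libraries, so the absence of a gene was not read as a level of 0. All 7 listed members passed the filter on low counts, which left 18053 genes for testing.

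RNA was sequenced from S1, a mouse gastric cancer cell line derived from a ChetPS mouse (*Cdh1* F/+, with F/F alleles of both *Smad4* and *Trp53*), so that every group, control included, carried the same alleles and also expressed Cas9. The 4 groups of 3 libraries were a control with a non-targeting guide RNA, *Nf2*-KO, *Rasa1*-KO and a double knockout of *Nf2* and *Rasa1*. The study describes *Smad4*, *Trp53* and *Cdh1* as lost in S1M, the metastatic variant of this line. Each group was made from the same line by lentiviral guide delivery, and the cells that survived antibiotic selection were pooled, so the knockouts are not single clones. The study's methods describe growth as tumorspheres in low-attachment suspension, whereas the sample labels give the cell type as monolayer. A figure legend of the study calls its replicates technical, so p-values here measure the spread between libraries, which may be technical.

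EMT is the programme in which epithelial cells loosen their junctions and take on mesenchymal features, and in gastric carcinoma it is known for its link to invasion and to diffuse growth. Zinc-finger repressors of the Snail and Zeb families and the helix-loop-helix factor Twist1 bind E-box sequences and silence junction genes such as *Cdh1*, which encodes E-cadherin. Vimentin and N-cadherin are classical products of the mesenchymal state, and EpCAM is an adhesion molecule of simple epithelia. *Nf2* encodes Merlin, an upstream activator of Hippo signalling that restrains YAP and its TEAD partners, and *Rasa1* encodes a GTPase-activating protein that switches off Ras.

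The targeted genes went against the labels in part. *Nf2* stood at 11.4, 13.3 and 12.1 FPKM (fragments scaled to gene length and sequencing depth) in the control libraries and at 2.88, 3.66 and 2.62 in the *Nf2*-KO libraries. In the libraries labelled *Rasa1*-KO it stood at 2.40, 2.34 and 2.82, and in those labelled double-KO at 11.8, 10.9 and 11.3, within the control range in 1 library and just below it in the others. *Rasa1* was 10.9, 14.3 and 15.6 FPKM in control, 5.32 to 6.0 in the libraries labelled *Rasa1*-KO and 3.09 to 4.35 in those labelled double-KO. The tables of these 6 libraries carry names that exchange the same pair of groups. They are therefore called the libraries labelled *Rasa1*-KO and labelled double-KO throughout. An exchange would rename the pairwise comparisons, turn the sign of the one between these groups and change the departure from additivity, which is given both ways. A guide can remove the protein without lowering its mRNA, which concerns only the *Nf2* values of the libraries labelled double-KO. The libraries labelled *Rasa1*-KO were low in both targeted genes, although their label names no *Nf2* knockout. Which naming is right was not tested.

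Library totals ran from 43818139 to 96674463 counts. The control library without a number stood apart from the other control libraries, with a median chi-square per gene of 24.6 and 38.7 against them, compared with 6.89 between those. Library 1 of the group labelled double-KO stood apart as well, at 8.92 and 9.70 against 2.26, while pairs within the remaining groups gave 2.16 to 3.51. Results resting on these libraries are given with and without both, an alternative chosen after the data were seen. *Cdh1* mRNA was present in this line, derived from a *Cdh1* F/+ mouse, at 76.7, 105 and 124 FPKM in the control libraries. The keratin genes *Krt8*, *Krt18* and *Krt19*, which mark simple epithelium, reached at least 555 FPKM in each of the 12 libraries.

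The promoters of *Epcam* and *Snai1* are shown because they hold the E-box letters that Snail and Zeb proteins are known to bind, and because these genes stood at opposite ends of the comparison of *Nf2*-KO with control. Both windows are the 250 bases before the annotated start in the RefSeq promoter table for GRCm38.p6, on the plus strand, with the E-box (CAGGTG or its reverse complement CACCTG) in capitals. The *Epcam* window is chr17:87635729-87635978 and the *Snai1* window is chr2:167537945-167538194, and neither overlaps an annotated gene.
Epcam: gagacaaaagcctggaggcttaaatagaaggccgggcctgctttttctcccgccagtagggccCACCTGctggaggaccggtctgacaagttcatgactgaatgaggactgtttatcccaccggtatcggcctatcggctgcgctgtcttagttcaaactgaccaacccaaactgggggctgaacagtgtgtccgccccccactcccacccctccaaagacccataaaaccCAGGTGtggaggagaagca
Snai1: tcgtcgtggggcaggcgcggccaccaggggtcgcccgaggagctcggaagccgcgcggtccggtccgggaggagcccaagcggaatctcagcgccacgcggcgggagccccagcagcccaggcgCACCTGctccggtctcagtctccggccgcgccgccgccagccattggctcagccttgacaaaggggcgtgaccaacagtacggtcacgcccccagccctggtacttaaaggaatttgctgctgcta

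The *Epcam* window held the E-box at 187 to 182 and at 19 to 14 bases before the start, and the *Snai1* window held it at 126 to 121 bases before the start. Of all 32851 promoter windows of this length, 17.2% held the E-box on either strand. The windows of *Vim* and of the 4 annotated *Zeb2* starts held none, and 5 of the 8 genes were in the promoter table, *Twist1* included. The TEAD motif (GGAATG, reverse complement CATTCC), found in 12.6% of all windows, and the AP-1 motif (TGANTCA, which is its own reverse complement), found in 6.7%, occurred among the members only before the most downstream *Zeb2* start, which lies inside the gene. These matches describe letters and not binding.

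In *Nf2*-KO all 7 listed members differed from control. The 4 transcription factor genes, *Vim* and *Cdh2* rose, by 1.36-fold (*Cdh2*) to 4.94-fold (*Snai1*), and *Epcam* fell to 0.161 times its control level, so that 6 were higher and 1 lower. Across all genes tested, 20.6% were higher and 22.2% lower in this comparison by the same edgeR rule (adjusted p under 0.05). In the libraries labelled *Rasa1*-KO *Vim*, *Snai1* and *Zeb1* were higher and *Epcam* lower (3 members and 1), against 19.7% and 22.2% of all genes. In those labelled double-KO *Vim* was higher and *Epcam* lower (1 each), against 4% and 2.46%. These 3 comparisons share the control libraries. The median log2 difference of the 7 members was 0.91, 0.31 and 0.07 in this order, and that of all genes tested was -0.07, -0.08 and -0.04. In the libraries labelled *Rasa1*-KO the calls of *Zeb1* and *Snai1* were lost when only the compared groups were fitted (edgeR adjusted p = 0.072 and 0.0681). In those labelled double-KO that fit left 0 of the 2 calls (adjusted p = 0.108 for *Vim* and 0.24 for *Epcam*), with 0.102% of all genes called in either direction. By contrast, 4 members passed without the control library without a number (30.1% of all genes), 1 without control library 1 (4.56%) and 3 with both libraries that stood apart left out (29.9%).

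By the rule of the study, a fold of at least 3 with an unadjusted p under 0.05, *Vim*, *Snai1* and *Epcam* passed in *Nf2*-KO (3 members, against 11.4% of all genes in either direction) and *Vim* alone in the libraries labelled *Rasa1*-KO (1 member, against 9.27%). No member passed that rule in the libraries labelled double-KO (0 members, against 2.03%), where edgeR called 2.

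*Snai1* encodes Snail, a repressor of *Cdh1* that is produced early in EMT. Its level was 0.343, 0.912 and 1.35 FPKM in the control libraries, 4.58, 3.95 and 3.49 in *Nf2*-KO, 1.73, 2.01 and 1.86 in the libraries labelled *Rasa1*-KO, and 0.368, 0.412 and 0.670 in those labelled double-KO. The *Nf2*-KO libraries were the highest and did not overlap any other group, whereas the libraries labelled double-KO overlapped the lower part of the control range. In TPM the libraries labelled *Rasa1*-KO (2.112 to 2.56) also overlapped control, where library 2 stood at 2.522. Against control, *Snai1* rose 4.94-fold in *Nf2*-KO (log2 fold change 2.31 ± 0.37 SE, edgeR adjusted p = 0.000436), and its rise was 2.40-fold in the libraries labelled *Rasa1*-KO (1.27 ± 0.36, adjusted p = 0.0161). In the libraries labelled double-KO the log2 difference from control was -0.70 ± 0.37 (edgeR adjusted p = 0.311). That difference depended on the control library without a number. Leaving this library out gave -1.07 (edgeR adjusted p = 0.00762), and leaving out both libraries that stood apart gave -0.91 (adjusted p = 0.0146). These levels rest on 58 to 690 counts per library.

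*Snai2* encodes Slug, the Snail relative with similar DNA-binding fingers. It was measured at 0.889, 1.47 and 1.85 FPKM in control, 4.05, 3.12 and 2.16 in *Nf2*-KO, 1.46, 1.77 and 1.26 in the libraries labelled *Rasa1*-KO, and 1.40, 1.25 and 1.11 in those labelled double-KO. In FPKM the *Nf2*-KO libraries lay above all others but were themselves the most dispersed, and the other 3 groups overlapped. In TPM, control library 2 (3.435) lay above *Nf2*-KO library 3 (2.894). *Snai2* rose 2.34-fold in *Nf2*-KO against control (log2 1.23 ± 0.27 SE, edgeR adjusted p = 0.00361). The log2 differences of the libraries labelled *Rasa1*-KO (0.24, 95% confidence interval -0.35 to 0.83) and labelled double-KO (-0.03, -0.62 to 0.57) did not pass the test (edgeR adjusted p = 0.502 and 0.969).

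*Zeb1* and *Zeb2* encode paired zinc-finger repressors that hold cells in the mesenchymal state. *Zeb1* stood at 4.02, 5.61 and 5.85 FPKM in control, 9.13, 9.65 and 8.58 in *Nf2*-KO, 6.98, 7.58 and 6.43 in the libraries labelled *Rasa1*-KO, and 6.01, 5.52 and 5.79 in those labelled double-KO. In FPKM the *Nf2*-KO libraries were the highest, the libraries labelled *Rasa1*-KO came next without overlap, and the remaining groups overlapped each other. In TPM the libraries labelled *Rasa1*-KO (7.719 to 9.66) lay inside the control range (5.232 to 10.89), with *Nf2*-KO still highest. Against control *Zeb1* rose 1.68-fold in *Nf2*-KO (log2 0.75 ± 0.12 SE, edgeR adjusted p = 0.000415), and its rise was 1.35-fold in the libraries labelled *Rasa1*-KO (0.44 ± 0.12, adjusted p = 0.0126), with 0.17 ± 0.12 in those labelled double-KO (adjusted p = 0.457).

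*Zeb2*, unlike *Zeb1*, was not called in the libraries labelled *Rasa1*-KO. Its values were 3.03, 5.84 and 7.0 FPKM in control, 8.88, 9.15 and 8.14 in *Nf2*-KO, 5.62, 5.81 and 5.08 in the libraries labelled *Rasa1*-KO, and 3.67, 5.21 and 5.79 in those labelled double-KO. In FPKM *Nf2*-KO was again above every other library, and the other 3 groups lay inside 1 common range, with the control library without a number at its lower end. In TPM, control library 2 (13.04) lay above *Nf2*-KO library 3 (10.91). *Zeb2* rose 1.87-fold in *Nf2*-KO (log2 0.91 ± 0.20 SE, edgeR adjusted p = 0.00397), while the log2 differences of 0.31 and 0.07 in the libraries labelled *Rasa1*-KO and labelled double-KO did not pass (edgeR adjusted p = 0.237 and 0.881). Whether the *Zeb1* and *Zeb2* responses differ from each other was not tested.

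**Figure D1:**
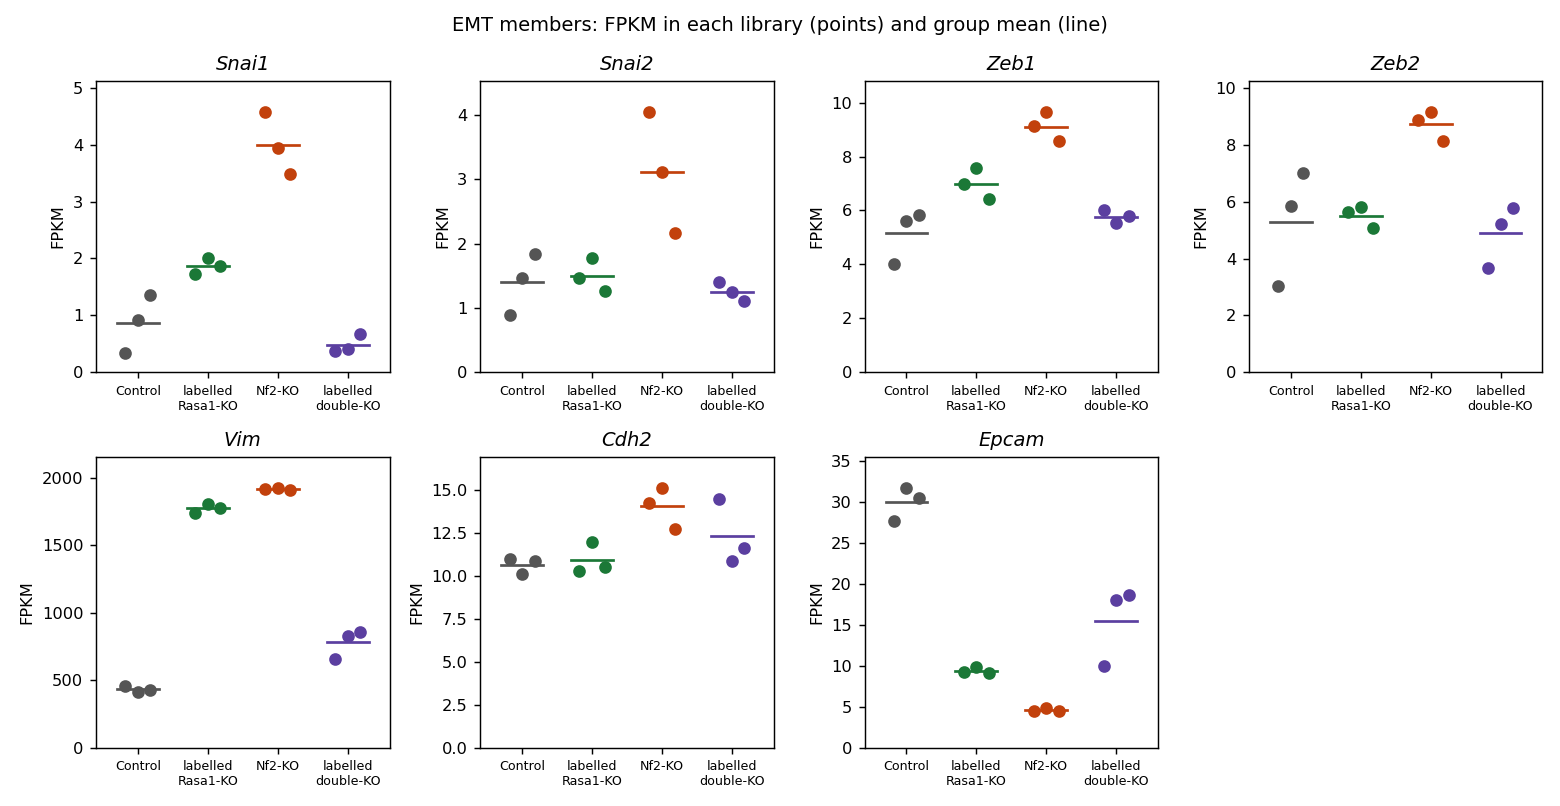
Expression of the 7 listed members in FPKM (y axis, linear and starting at 0) in each of the 12 libraries (points) with the group mean (line), by group on the x axis. *Vim* lay between 1744 and 1927 FPKM in *Nf2*-KO and the libraries labelled *Rasa1*-KO and at or below 856 elsewhere, and *Epcam* was highest in control.

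*Vim*, the gene of the intermediate filament vimentin, was the most abundant member per length. It stood at 458, 414 and 431 FPKM in control, 1921, 1927 and 1911 in *Nf2*-KO, 1744, 1804 and 1780 in the libraries labelled *Rasa1*-KO, and 660, 826 and 856 in those labelled double-KO. No groups overlapped. *Vim* rose 4.61-fold in *Nf2*-KO (log2 2.20 ± 0.13 SE, edgeR adjusted p = 2.18e-07), 4.45-fold in the libraries labelled *Rasa1*-KO (2.15 ± 0.13, adjusted p = 4.16e-07) and 1.94-fold in those labelled double-KO (0.95 ± 0.12, adjusted p = 0.00121). The top 2 groups differed by only 0.05 on the log2 scale (95% confidence interval of the labelled *Rasa1*-KO less *Nf2*-KO difference -0.32 to 0.21, edgeR adjusted p = 0.917).

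*Cdh2*, which encodes N-cadherin, had the smallest change of the members in *Nf2*-KO. Its level was 10.9, 10.1 and 10.9 FPKM in control, 14.2, 15.1 and 12.7 in *Nf2*-KO, 10.3, 12 and 10.5 in the libraries labelled *Rasa1*-KO, and 14.5, 10.8 and 11.6 in those labelled double-KO. In FPKM the *Nf2*-KO libraries lay above control and above the libraries labelled *Rasa1*-KO, but library 1 labelled double-KO, which stood apart, was as high as them. In TPM, control library 2 (20.23) lay above *Nf2*-KO library 3 (17.05). *Cdh2* rose 1.36-fold in *Nf2*-KO (log2 0.45 ± 0.12 SE, edgeR adjusted p = 0.0113), with log2 differences of 0.16 and 0.32 in the libraries labelled *Rasa1*-KO and labelled double-KO (edgeR adjusted p = 0.323 and 0.149). Without both libraries that stood apart, 0.21 in the libraries labelled *Rasa1*-KO passed (edgeR adjusted p = 0.0371). The difference in the libraries labelled double-KO passed without the control library without a number (0.38, edgeR adjusted p = 0.0358). It also passed with the replicate block by the numbers in the table names (0.31, edgeR adjusted p = 0.0427).

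*Epcam* was the epithelial member. Its values were 27.7, 31.7 and 30.4 FPKM in control, 4.43, 4.89 and 4.54 in *Nf2*-KO, 9.24, 9.79 and 9.15 in the libraries labelled *Rasa1*-KO, and 9.96, 18 and 18.6 in those labelled double-KO. The order in FPKM was control, labelled double-KO, labelled *Rasa1*-KO and *Nf2*-KO, without overlap, although library 1 labelled double-KO came close to the libraries labelled *Rasa1*-KO. In TPM, library 1 labelled double-KO (12.14) lay below library 1 labelled *Rasa1*-KO (12.49). Relative to control, *Epcam* fell to 0.161 times its level in *Nf2*-KO (log2 -2.63 ± 0.19 SE, edgeR adjusted p = 1.01e-06), to 0.342 in the libraries labelled *Rasa1*-KO (-1.55 ± 0.18, adjusted p = 5.63e-05) and to 0.559 in those labelled double-KO (-0.84 ± 0.18, adjusted p = 0.0173). The last of these was lost without control library 1 (-0.78, edgeR adjusted p = 0.0595). The replicate block by the numbers in the titles lost it too (-0.94, edgeR adjusted p = 0.0548), as did the fit of only the compared groups given above.

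**Figure D2:**
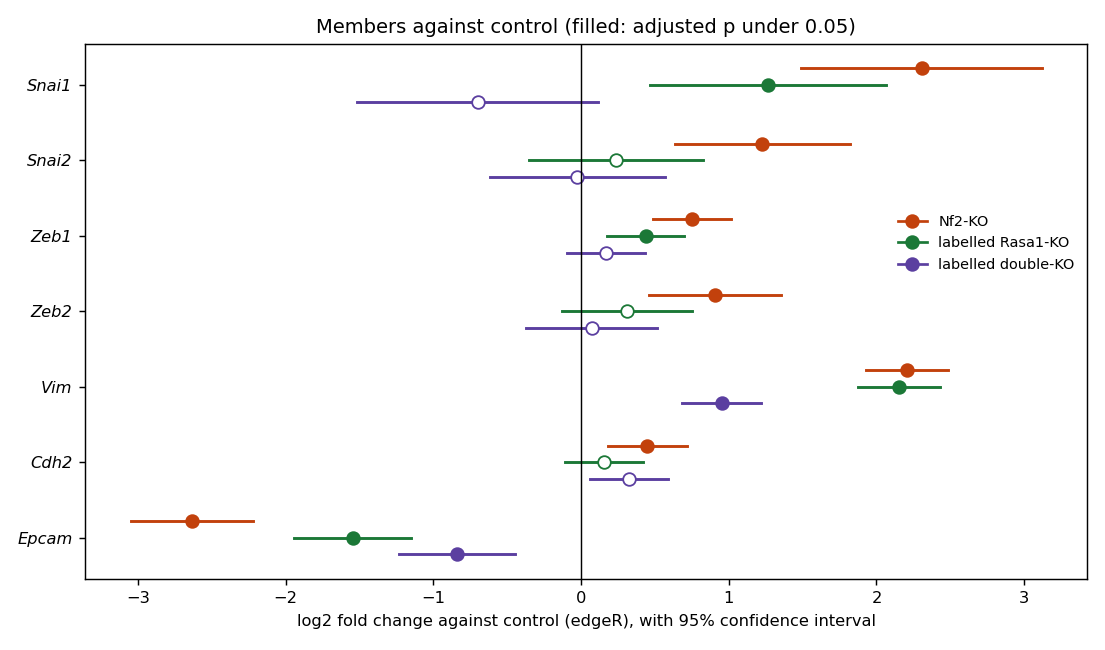
Fold change against control of each listed member (edgeR log2 fold change on the x axis, bars the 95% confidence interval) for *Nf2*-KO and the libraries labelled *Rasa1*-KO and labelled double-KO, with filled symbols where the adjusted p was under 0.05. For *Nf2*-KO all 7 members passed, for the libraries labelled *Rasa1*-KO 4 did, and the libraries labelled double-KO had 2.

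The knockout groups were also compared with each other. From the libraries labelled *Rasa1*-KO to those labelled double-KO, *Vim* fell to 0.435 times its level (log2 -1.20 ± 0.12 SE, edgeR adjusted p = 4.19e-05), *Snai1* fell to 0.256 times (-1.97 ± 0.37, adjusted p = 0.00241) and *Epcam* rose 1.63-fold (0.71 ± 0.18, adjusted p = 0.0118). Those 3 calls compare with 16.3% of all genes higher and 14% lower, and the rule of the study kept *Snai1* (1 member, against 5.66%). The *Epcam* call was lost without library 2 labelled double-KO (0.56, edgeR adjusted p = 0.0554) or library 3 (0.59, adjusted p = 0.0505). It was also lost with the replicate block by the numbers in the titles (0.61, edgeR adjusted p = 0.0748). *Zeb1* was called lower with both libraries that stood apart left out (-0.25, edgeR adjusted p = 0.0181).

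Against *Nf2*-KO, the libraries labelled double-KO were lower in 5 members and higher in *Epcam*, with *Cdh2* not called (edgeR adjusted p = 0.47). Of all genes, 16.9% were higher and 15.3% lower. *Snai1* differed most, at 0.124 times the *Nf2*-KO level (log2 -3.01 ± 0.38 SE, edgeR adjusted p = 0.000119), followed by *Epcam* at 3.46 times (1.79 ± 0.18, adjusted p = 2.57e-05). *Snai2* (log2 -1.25) and *Vim* (-1.25) fell alike, *Zeb2* fell by 0.83 and *Zeb1* by 0.58 on the log2 scale, with edgeR adjusted p from 1.84e-05 to 0.00844. By the rule of the study *Snai1* and *Epcam* passed (2 members, against 7.69%). *Cdh2* was called as well without both libraries that stood apart (-0.27, edgeR adjusted p = 0.0143).

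Between the libraries labelled *Rasa1*-KO and *Nf2*-KO, *Epcam* alone was called, 2.12-fold higher in the former (log2 1.09 ± 0.18 SE, edgeR adjusted p = 0.00751), against 1.92% of all genes higher and 1.74% lower. No member reached a fold of at least 3 (0 members, against 1.29%). The other 6 members had lower values in the libraries labelled *Rasa1*-KO, from -0.05 for *Vim* to -1.04 for *Snai1*. None of these passed (edgeR adjusted p from 0.0711 to 0.917). The count became 6 of 7, *Vim* excepted, both when only these groups were fitted and when the libraries that stood apart, which belong to neither group, were left out, with 25.8% and 19.2% of all genes called in either direction, against 3.66% before (*Zeb2* -0.60, edgeR adjusted p = 0.000122, and *Snai1* -1.04, adjusted p = 0.000929, in the latter).

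Whether the combined knockout equalled the sum of the single ones was tested as a departure from additivity, the log2 change of the double-KO less those of both single knockouts, each against control. As labelled, 6 of the 7 members departed, 1 upwards and 5 downwards, against 27.4% of all genes higher and 24.9% lower. *Epcam* departed by 3.34 ± 0.26 (SE, edgeR adjusted p = 1.1e-06), *Snai1* by -4.27 ± 0.53 (adjusted p = 4.22e-05) and *Vim* by -3.40 ± 0.18 (adjusted p = 5.17e-08). With the labels of *Rasa1*-KO and double-KO exchanged, as *Nf2* mRNA and the table names have them, 2 members passed, against 2.69% of all genes higher and 3.72% lower: *Vim* (-1.0 ± 0.17, edgeR adjusted p = 0.00557) and *Epcam* (1.93 ± 0.25, adjusted p = 0.00139). *Snai1* then stood at -0.34 ± 0.51 (edgeR adjusted p = 0.789). *Cdh2*, not called as labelled, was called without library 1 labelled double-KO (-0.43, edgeR adjusted p = 0.0258). It was also called as labelled with both libraries that stood apart left out (-0.48, edgeR adjusted p = 0.00247). In that setting 1 member departed upwards and 6 downwards, with 69% of all genes called in either direction.

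**Figure D3:**
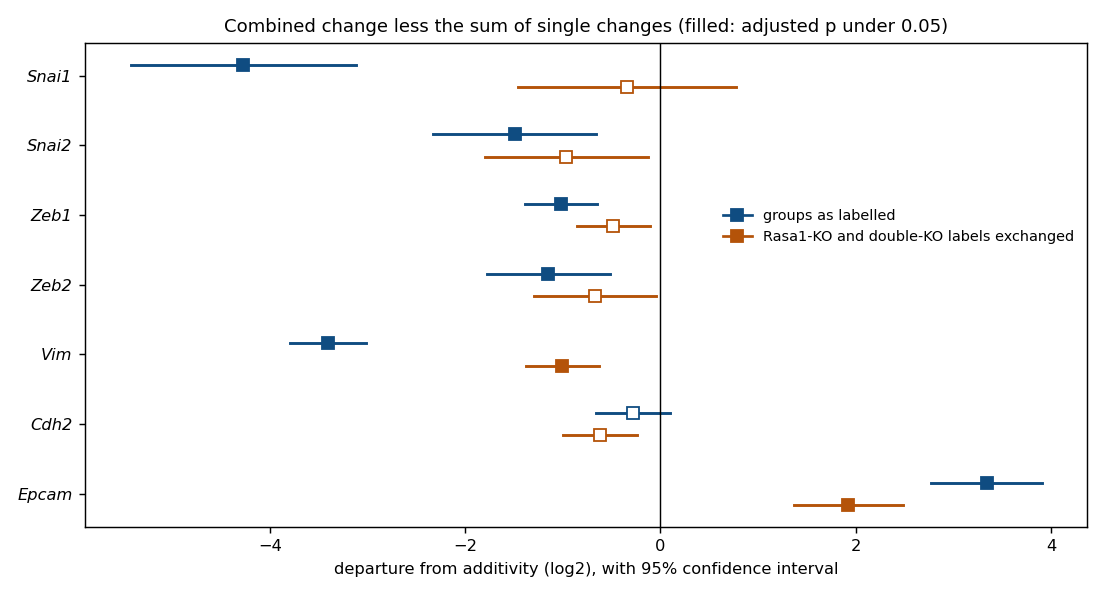
Departure from additivity of each listed member (log2, x axis, bars the 95% confidence interval) with the groups as labelled and with the *Rasa1*-KO and double-KO labels exchanged, filled where the adjusted p was under 0.05. Each member keeps its sign under both labelings, and *Snai1* moves from -4.27 to -0.34.

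Gene lists are counted below beside the share of all genes called in either direction, which was 42.8% for *Nf2*-KO, 41.9% for the libraries labelled *Rasa1*-KO and 6.46% for the libraries labelled double-KO. With both libraries that stood apart left out these shares were 67%, 65.9% and 29.9%, so a larger count in that setting goes with more calls in general. Other EMT transcription factors were read from a list of 14, of which 12 were listed. In *Nf2*-KO 5 rose and 2 fell, in the libraries labelled *Rasa1*-KO 4 rose and 1 fell, and in those labelled double-KO 0 passed in edgeR (4 of 12 had an unadjusted p under 0.05, and 1 rose and 4 fell with both libraries that stood apart left out, where 29.9% of all genes were called). *Prrx1*, a homeobox factor of mesenchyme, rose from 0.0669, 0.792 and 1.23 FPKM in control to 5.54, 5.28 and 4.11 in *Nf2*-KO (log2 2.91, edgeR adjusted p = 0.00451) and to 2.89, 3.54 and 2.57 in the libraries labelled *Rasa1*-KO (2.25, adjusted p = 0.017). The forkhead gene *Foxc1* rose as well, with log2 fold changes of 1.32 in *Nf2*-KO and 1.44 in the libraries labelled *Rasa1*-KO (edgeR adjusted p = 9.07e-05 and 6.44e-05). *Twist2*, the relative of *Twist1*, rose by 0.60 and 0.63 (edgeR adjusted p = 0.00429 and 0.00344). *Sox9* fell in both, by 1.45 and 1.37, but control ranged from 3.485 to 21.71 FPKM. Its lowest control value, in the library without a number, lay inside the range of both groups. *Foxc2* fell by 2.35 in *Nf2*-KO, at no more than 0.490 FPKM in any library and with overlap between *Nf2*-KO and control.

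Mesenchymal and matrix genes moved as a mixed group. Of the 18 tested of 20 on the list, 10 rose and 1 fell in *Nf2*-KO (median log2 1.00), 9 rose and 5 fell in the libraries labelled *Rasa1*-KO (0.66), and 3 rose and 0 fell in those labelled double-KO (0.03). The gene that fell in *Nf2*-KO was *Msn*, which encodes the actin linker moesin and fell by 0.93, and those that rose in the libraries labelled double-KO were *Acta2* (1.91), *S100a4* (1.23) and *Loxl2* (0.59). Without those libraries that stood apart the counts were 11 and 5, 11 and 7, and 5 and 5 (of all genes, 67%, 65.9% and 29.9%), so the count of 0 falling genes in the libraries labelled double-KO did not hold. Fibrillar collagen genes were among those that rose. *Col1a2* went from at most 0.0944 FPKM in control to 23.2, 24.5 and 24.3 in *Nf2*-KO and 4.94, 5.24 and 4.86 in the libraries labelled *Rasa1*-KO, and stayed at or below 0.0489 in those labelled double-KO. *Col3a1* was 6.31, 140 and 112 FPKM in control, where the library without a number was far below the others. It reached 1025 to 1120 FPKM in *Nf2*-KO (log2 3.75, edgeR adjusted p = 0.00272). *Col1a1* and the gelatinase gene *Mmp2* rose by 5.00 and 4.29 in *Nf2*-KO (edgeR adjusted p = 0.000583 and 0.00207). *Fn1*, the fibronectin gene, did not follow them: its log2 difference in *Nf2*-KO was -0.07 (edgeR adjusted p = 0.894), it dropped by 0.99 in the libraries labelled *Rasa1*-KO (adjusted p = 0.0475), and control itself ranged from 145 to 529 FPKM.

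Epithelial genes that passed mostly fell in *Nf2*-KO. Of the 19 listed of 24, 12 fell and 1 rose in *Nf2*-KO (median log2 -1.22), 8 fell and 4 rose in the libraries labelled *Rasa1*-KO (-0.41), and 1 fell and 2 rose in those labelled double-KO (0.18). Keratin genes did not follow the junction genes: *Krt8*, *Krt18* and *Krt19* rose by 0.64 to 0.83 on the log2 scale in the libraries labelled *Rasa1*-KO, *Krt19* rose by 0.72 in those labelled double-KO, and the claudin gene *Cldn3* was the one that rose in *Nf2*-KO, by 0.44. With both libraries that stood apart left out, 12 fell and 5 rose, 12 fell and 5 rose, and 2 fell and 6 rose (of all genes, 67%, 65.9% and 29.9%). *Cdh1* fell to 25.4, 23.1 and 19.9 FPKM in *Nf2*-KO (log2 -2.09 ± 0.17 SE, edgeR adjusted p = 2.23e-06) and to 29.1, 35.3 and 29.2 in the libraries labelled *Rasa1*-KO (-1.57 ± 0.16, adjusted p = 2.48e-05), and stood at 89.4, 67.2 and 73.6 in those labelled double-KO (-0.29, adjusted p = 0.339). The libraries of *Nf2*-KO and those labelled *Rasa1*-KO lay below every control library, whereas those labelled double-KO overlapped control. The tight-junction gene *Tjp3* fell by 4.09 and 2.42 on the log2 scale in *Nf2*-KO and the libraries labelled *Rasa1*-KO, and by 0.82 in those labelled double-KO (edgeR adjusted p = 0.0016 for the last). *Marveld3*, also of tight junctions, fell by 2.67 and 1.13, and *Ocln*, which encodes occludin, fell by 1.84 in *Nf2*-KO and had a difference of -0.47 in the libraries labelled *Rasa1*-KO (edgeR adjusted p = 0.000101 and 0.13).

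Of 13 listed epithelial transcription and splicing regulators (16 on the list), 7 fell and 1 rose in *Nf2*-KO, 2 fell and 1 rose in the libraries labelled *Rasa1*-KO, and 0 fell and 1 rose in those labelled double-KO. With both libraries that stood apart left out, 9 fell and 1 rose, 5 fell and 1 rose, and 0 fell and 4 rose (of all genes, 67%, 65.9% and 29.9%). *Grhl3*, a grainyhead factor gene, fell by 1.18 in *Nf2*-KO and 1.34 in the libraries labelled *Rasa1*-KO and was the one that rose in those labelled double-KO, by 0.65. The ETS factor genes *Elf3* and *Ehf* fell by 1.58 and 1.35 on the log2 scale in *Nf2*-KO, and *Foxa1*, a pioneer factor of endoderm, fell by 1.72 at a level below 0.5 FPKM in every library (edgeR adjusted p = 0.000101, 0.000159 and 0.0403). *Cdx2*, the intestinal homeobox gene, was the one that rose, by 1.67 in *Nf2*-KO and 1.72 in the libraries labelled *Rasa1*-KO (edgeR adjusted p = 4.27e-06 and 5.5e-06). *Esrp1* was not among the listed genes.

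TGF-beta signalling, a classical inducer of EMT, was read from 14 genes, all listed, in a line built on *Smad4* loss. In *Nf2*-KO 5 rose and 4 fell (median log2 0.06), in the libraries labelled *Rasa1*-KO 4 rose and 3 fell (-0.0033), and in those labelled double-KO 2 rose and 0 fell (-0.07). With both libraries that stood apart left out, 6 rose and 6 fell, 5 rose and 6 fell, and 2 rose and 1 fell (of all genes, 67%, 65.9% and 29.9%). The receptor genes *Tgfbr2* and *Tgfbr3* rose by 1.21 and 1.39 in *Nf2*-KO and the feedback inhibitor gene *Smad7* by 1.05, whereas the ligand gene *Tgfb3* fell by 1.86 on the log2 scale (edgeR adjusted p from 1.4e-05 to 0.00209). *Smad7* also rose by 0.84 in the libraries labelled double-KO (edgeR adjusted p = 0.00621).

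**Figure D4:**
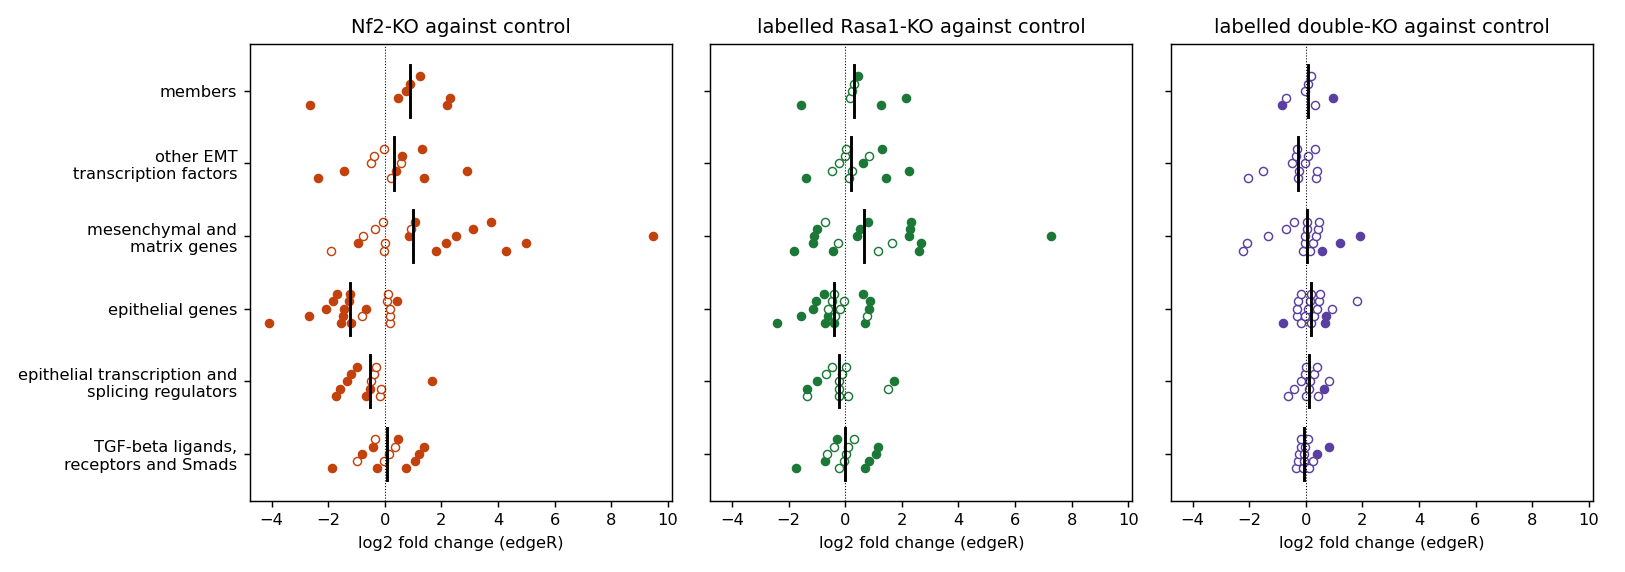
Log2 fold change against control (edgeR, x axis) of each tested gene of 6 lists (rows, points spread vertically for legibility), for *Nf2*-KO and the libraries labelled *Rasa1*-KO and labelled double-KO. Filled points had an adjusted p under 0.05 and the black bar is the list median, which for the epithelial genes was -1.22, -0.41 and 0.18.

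Markers of other cell types were read beside these results. In bulk RNA, fewer cells of a type and less RNA per cell cannot be told apart. Of 8 fibroblast markers 5 were listed, and their summed level was 74.2 to 80.4 FPKM in *Nf2*-KO, 29.4 to 31.3 in the libraries labelled *Rasa1*-KO, 16.6 to 52.7 in control and 7.90 to 9.30 in those labelled double-KO. Such sums, here and below, describe levels and are not comparable between libraries of different composition. In *Nf2*-KO 4 of these rose and 1 fell. *Pdgfra* rose by 4.46 and *Pdgfrb* by 2.94 on the log2 scale (edgeR adjusted p = 0.000772 and 0.00188), *Dpt* by 2.52 and *Fap* by 2.20 (adjusted p = 0.00412 and 0.0143). In the libraries labelled *Rasa1*-KO *Pdgfra* and *Pdgfrb* rose as well, by 3.28 and 1.73. *Dcn*, the decorin gene and the most abundant of the 5 in control, fell in all 3 groups, by 0.72, 1.13 and 2.14, and *Fap* fell by 2.72 in the libraries labelled double-KO, where *Vim* rose. In the libraries labelled double-KO 2 of the 5 fell (6.46% of all genes called), and all 5 fell without both libraries that stood apart (29.9%). Every listed gene had a count above 0 in all 12 libraries, so no listed marker could be at 0. The part of these markers in the rise of *Vim* and the collagens was not tested. Of 6 endothelial and 4 smooth-muscle markers, 3 and 2 were listed, with sums of at most 0.466 and 0.434 FPKM in any library. Of 7 leukocyte markers 3 were listed, with sums from 4.30 to 16.5 FPKM that came mostly from *Cd68*, which rose by 1.02 in *Nf2*-KO and 1.58 in the libraries labelled *Rasa1*-KO. *Csf1r* rose by 0.90 in *Nf2*-KO (edgeR adjusted p = 0.0373), the endothelial gene *Kdr* rose by 1.28 there and *Pecam1* fell by 1.62, and the smooth-muscle markers had a median log2 difference of 0.06. Of 16 gastric and intestinal epithelial markers 13 were listed, with sums from 2193 to 4200 FPKM. Of these 1 rose and 6 fell in *Nf2*-KO, the mucin genes *Muc5ac* and *Muc1* among the latter (log2 -4.47 and -3.10, edgeR adjusted p = 1.28e-05 and 7.48e-06), and 5 rose and 6 fell in the libraries labelled *Rasa1*-KO, where the gastric peptide gene *Tff1* rose by 2.25 (adjusted p = 0.0172). In those labelled double-KO 1 rose and 3 fell, or 5 and 5 with both libraries that stood apart left out (29.9% of all genes).

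Per length, *Vim* ranked between the 99.3 and 99.9 percentile of all listed genes in FPKM, *Cdh2* between 69.5 and 78.0, *Zeb1* between 52.9 and 68.9, *Zeb2* between 48.9 and 67.9, *Snai2* between 35.7 and 52.7 and *Snai1* between 26.2 and 54.8. *Epcam* had the widest span, from 54.2 in *Nf2*-KO to 90.6 in control. The Zeb genes were thus more abundant per length than the Snail genes in every library.

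Across the 12 libraries, which share the group structure, the 4 transcription factor genes were alike in pattern, with Pearson r of log2 CPM (counts scaled to depth) from 0.834 for *Snai1* with *Snai2* to 0.939 for *Zeb1* with *Zeb2*. *Vim* correlated with them at 0.576 to 0.836 and *Cdh2* at 0.296 to 0.592. *Epcam* ran opposite to all, from -0.738 with *Zeb2* to -0.889 with *Zeb1*. Among 13591 other genes, the nearest to *Vim* in pattern was *Ripor2* (r = 0.999), to *Zeb1* *Jcad* (0.992), to *Snai1* *Dchs2* (0.989), to *Snai2* *Kif3a* (0.944), to *Cdh2* *Ptprb* (0.915) and to *Epcam* *Glul* (0.986). *Col5a1* and *Ccdc80* followed *Zeb1* (0.985 each), *Nrg1* was among the 3 nearest to *Zeb2* (0.980), and *Ddr2*, a collagen receptor gene, followed *Snai1* (0.983). These are descriptions over libraries in which a handful of group means set most of the variation.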

How the data were processed

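Total RNA, depleted of rRNA (stranded kit), was sequenced from 12 libraries, 3 in each of 4 groups set by the genotype in the labels. Per the labels and the study's methods, the authors used Trimmomatic 0.38 for trimming, HISAT2 2.1.0 for alignment to mm10 and SAMtools 1.9, and assembled and quantified RefSeq transcripts with StringTie 2.1.3b. The deposited gene tables hold raw counts, FPKM and TPM side by side. FPKM and TPM were computed by the authors per library and are not comparable in sum between libraries with different composition. The study tested with DESeq2 and its own rule of fold and unadjusted p. Every listed gene had a count above 0 in every library, so genes with a 0 count anywhere were not analysed here.

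Library totals were 43818139 to 96674463 counts. Counts were tested with edgeR 4.0.16 (R 4.3.3): genes passing filterByExpr (18053 of 18926), TMM factors (0.946 to 1.15), 1 quasi-likelihood fit over all libraries, Benjamini-Hochberg adjustment over all genes tested and a threshold of 0.05. Fold changes are log2 with standard errors and 95% confidence intervals. Log2 CPM used a prior count of 2. DESeq2 1.42.0 and limma 3.58.1 on log2(FPKM + 1) or log2(FPKM + 0.1) were alternatives, beside other normalisation and filters, fits of the compared groups only, libraries left out and replicate blocks. The tests were checked on simulated data.

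Members and gene lists were chosen with earlier results of these data known. Named from each list were up to 4 genes with an adjusted p under 0.05 in *Nf2*-KO or the libraries labelled *Rasa1*-KO against control, no overlap of libraries and the largest change, plus *Cdh1*, *Fn1*, *Esrp1*, *Nf2* and *Rasa1*. *Krt8*, *Krt18*, *Krt19*, *Cldn3*, *Msn*, *Acta2*, *S100a4*, *Loxl2*, *Sox9*, *Foxc2*, *Grhl3* and *Dcn* were named after their values were seen. Genes alike in pattern were the 3 with the highest Pearson r among genes with a mean CPM of at least 1. Some genes that these rules name are not reported here. Replicate numbers were checked for pairing by the correlation of deviations from group means. Numbers in the titles did not pair libraries (r from -0.379 to 0.399 over 14 pairs). Matching numbers in the table names gave r of 0.626, 0.313 and 0.444 between control and the libraries labelled double-KO, and lower r between other groups. Pairs of control and labelled double-KO libraries with unlike numbers gave 0.399 and 0.258 where neither library stood apart, and -0.56 to -0.379 where either did. With the replicate block by table names, 13.9% of all genes were called between these groups, against 6.46% without it. Whether these numbers mark partners was not tested. The r of 0.626 was between the libraries that stood apart, which both carry no number in their table names. Promoter windows come from the RefSeq table for GRCm38.p6, and overlap with genes was read from GENCODE M21. *Snai2*, *Cdh2* and *Zeb1* had no promoter row.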

Additional observations from a re-analysis of the deposited data

Results flagged for a closer look

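The change in the double knockout differed from the sum of the changes in the single knockouts for 6 members when the groups were taken as labelled, by the edgeR interaction term. The departures on the log2 scale were 3.34 for *Epcam*, -3.40 for *Vim*, -4.27 for *Snai1*, -1.49 for *Snai2*, -1.15 for *Zeb2* and -1.02 for *Zeb1*. These values rest on labels that *Nf2* mRNA goes against, and with the labels exchanged only *Epcam* (1.93) and *Vim* (-1.0) passed in edgeR, of the 7 members tested, with 6.41% of all genes called in either direction against 52.4% as labelled.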

How the results depend on the processing

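Of 875 member values under alternatives, 815 kept their direction and their side of the threshold, 13 lost the call, 34 gained it and 13 turned sign. All that turned sign were differences between the libraries labelled double-KO and control that were near 0 and passed under no setting. *Zeb2* (0.07) became -0.16 without the control library without a number, -0.16 without the libraries whose titles carry no number, -0.018 without library 3 labelled double-KO, -0.011 without both libraries that stood apart, -0.061 with the replicate block by titles and -0.054 with log2(FPKM + 1) or log2(FPKM + 0.1) in limma, and ranged up to 0.25 with single libraries left out. *Snai2* (-0.03) became 0.0061 with no filter, 0.036, 0.18 and 0.095 without control library 1, control library 2 and library 3 labelled double-KO, and 0.026 and 0.0063 with the replicate block by titles and by table names, and ranged down to -0.24 with single libraries left out. For the libraries labelled double-KO against control, the replicate block by table names gained the call of *Cdh2* and changed no other. Counts of members called moved as follows, with the share of all genes called in either direction in brackets. For the libraries labelled double-KO against control, 2 (6.46%) became 0 with only the groups compared (0.102%) and 4 without libraries with unnumbered titles (26%). The count was 1 with the replicate block by titles (2.78%) and 1 to 4 when single libraries were left out (2.68% to 30.1%). For the libraries labelled *Rasa1*-KO against control, 4 (41.9%) became 2 with only the groups compared (25.6%). Between the libraries labelled *Rasa1*-KO and *Nf2*-KO, 1 (3.66%) became 3 with DESeq2 (7.55%) and 2 with log2(FPKM + 1) (4.75%). The count was 4 without libraries with unnumbered titles (6.76%) and 4 with the replicate block by table names (8.66%). It was 6 both with only these groups (25.8%) and without the libraries that stood apart (19.2%). The fold rule of the study gave 3, 1, 0, 1, 2 and 0 members in place of 7, 4, 2, 3, 6 and 1, in the order *Nf2*-KO, labelled *Rasa1*-KO and labelled double-KO against control, then labelled double-KO against labelled *Rasa1*-KO and against *Nf2*-KO, then labelled *Rasa1*-KO against *Nf2*-KO. With the labels exchanged 2 in place of 6 members departed from additivity. Apart from the settings that change the libraries or the rule, which alter what is compared, the cause was not tested. The 7 calls in *Nf2*-KO against control held under all 17 fitted alternatives of each member, not counting the fold rule. With 3 libraries per group and 58 counts in the shallowest *Snai1* value, small differences of the Snail genes were not detectable.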
